A study of Mus musculus with 16 samples.

Results

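The liver lobule is zoned: hepatocytes around the central vein and hepatocytes around the portal vein carry different enzymes. The transcripts of 10 genes that mark these zones were examined in bulk RNA-seq of mouse liver. They were chosen by gene symbol and comprised 8 pericentral genes (Glul, Slc1a2, Cyp2e1, Cyp1a2, Oat, Tbx3, Lgr5 and Axin2) and 2 periportal genes (Cyp2f2 and Hal). All 10 were among the 55421 genes of the count table and all 10 were among the 23018 with enough reads to be tested (at least 10 counts in total).

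Male C57BL/6 mice gave 16 libraries, 4 for each combination of genotype (control or HIRA KO) and time (before or after liver regeneration). HIRA is a histone chaperone; it supplies H3.3, a replacement histone, to chromatin independently of DNA replication. All mice, controls included, received AAV8 at 6 months of age, with the transgene under the hepatocyte-specific Tbg promoter. Other liver cells therefore keep the gene. Within each group, 2 libraries were from the Cre approach (HIRA fl/fl mice given AAV8 Tbg-Cre, with wildtype mice given AAV8 Tbg-Cre as control) and 2 from the CRISPR approach (wildtype mice given saCAS9 under Tbg with a U6-driven guide against HIRA, with a Rosa26 guide as control). Partial hepatectomy followed 4 weeks after the virus, the resected lobes gave the samples before regeneration, and the remaining lobes, collected 5 days later, gave the samples after it. Lobe, mode of collection and time therefore changed together and cannot be told apart. The tables number the libraries of a group from 1 to 4. They do not say which approach or mouse a number stands for, and the same number at both times is not taken here to be the same mouse.

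Total counts per library ran from 15103059 to 21738619. Hira itself lay at 5.21 to 6.18 CPM (a read count per fixed number of reads, with library sizes scaled by TMM) in control and 3.13 to 4.38 CPM in HIRA KO before regeneration, and at 4.99 to 6.29 and 3.04 to 4.56 CPM after it. The 2 genotypes did not overlap at either time, although Hira was not called (edgeR's quasi-likelihood test, log2 fold change -0.70 ± 0.17 (SE), Benjamini-Hochberg adjusted p = 0.129 before, and -0.69 ± 0.169, adjusted p = 0.0666 after). Before regeneration, 6 hepatocyte markers summed to 99180 to 112300 CPM in control and to 156600, 138800, 114700 and 129100 CPM in HIRA KO libraries 1 to 4, without overlap. The 6 markers did not move together. Below all controls were 3, 2, 1 and 0 of them in HIRA KO libraries 1 to 4. Above all controls were 3, 3, 2 and 2. Over all genes tested the shares were 24.6%, 24.5%, 19.4% and 16.8% below and 30.1%, 28.5%, 19.1% and 18.6% above. After regeneration the sums overlapped, at 107700 to 153200 CPM in control and 112500 to 137500 CPM in HIRA KO. Libraries 1 and 2 of HIRA KO stood apart from the other libraries at both times. On the second principal component, which held 26.5% of the variance, they lay at -47.4 and -36.6 before and at -40.2 and -36.2 after regeneration, whereas the other 12 libraries lay between -1.14 and 31.2. For each marker, the HIRA KO comparisons at each time and over regeneration are therefore also given without these 4 libraries, an alternative chosen after seeing the data.

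Pericentral identity is set in large part by Wnt signals and R-spondin from the endothelium of the central vein, which act through beta-catenin and TCF/LEF factors in the adjacent hepatocytes. Glutamine synthetase (Glul) is the classic marker of the innermost hepatocytes, where it captures ammonia that escapes urea synthesis upstream. Slc1a2 imports the glutamate it needs and Oat produces glutamate from ornithine. Cyp2e1 and Cyp1a2 are drug-metabolising enzymes of a wider pericentral territory, Axin2 is a negative feedback target of Wnt signaling, Lgr5 is an R-spondin receptor and Tbx3 a transcription factor. On the periportal side, Hal (histidine ammonia-lyase) begins the breakdown of histidine, and Cyp2f2 is a cytochrome P450 of the portal side of the lobule.

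RefSeq (GRCm38.p6) gave a window of 250 bases upstream of the start for 8 of the 10 genes, all but Tbx3 and Lgr5. Each was searched on both strands for the TCF/LEF letters CTTTGAT and CTTTGTT and for the HNF4A letters CAAAGTCCA. All 3 motifs hold CAAAG on one strand, so a match to one can overlap a match to another. CTTTGAT was in 3.21%, CTTTGTT in 5.03% and CAAAGTCCA in 0.384% of all 32851 RefSeq windows of that length. Of the 8 windows, 2 held a match, both to CTTTGAT: that of the pericentral gene Slc1a2, 207 to 201 bases before the start on the reverse strand, and that of the periportal gene Hal, 199 to 193 bases before the start on the forward strand. These 2 windows are shown with those of Glul and Axin2, the innermost pericentral enzyme and the Wnt feedback gene, in which none of the 3 motifs occurred. All are on the plus strand, 5′ to 3′, and capitals mark the match, which on the reverse strand appears as its complement ATCAAAG. The Slc1a2 start used by RefSeq lies inside the GENCODE gene, and its window is cut to the 168 bases before an exon of that annotation.
Slc1a2 (chr2:102706188-102706355): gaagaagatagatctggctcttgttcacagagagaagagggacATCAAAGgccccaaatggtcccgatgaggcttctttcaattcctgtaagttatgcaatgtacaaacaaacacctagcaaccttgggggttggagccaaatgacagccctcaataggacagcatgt
Hal (chr10:93488518-93488767): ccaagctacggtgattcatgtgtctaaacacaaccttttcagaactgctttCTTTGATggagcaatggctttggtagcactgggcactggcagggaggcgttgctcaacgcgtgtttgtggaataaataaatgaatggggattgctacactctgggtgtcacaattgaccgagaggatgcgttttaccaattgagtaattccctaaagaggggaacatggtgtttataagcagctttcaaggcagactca
Glul (chr1:153899679-153899928): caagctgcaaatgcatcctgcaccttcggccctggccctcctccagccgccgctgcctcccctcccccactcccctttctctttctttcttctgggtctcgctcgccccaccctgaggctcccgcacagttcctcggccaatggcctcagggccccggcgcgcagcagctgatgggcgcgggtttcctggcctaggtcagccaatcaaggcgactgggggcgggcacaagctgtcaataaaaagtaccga
Axin2 (chr11:108920099-108920348): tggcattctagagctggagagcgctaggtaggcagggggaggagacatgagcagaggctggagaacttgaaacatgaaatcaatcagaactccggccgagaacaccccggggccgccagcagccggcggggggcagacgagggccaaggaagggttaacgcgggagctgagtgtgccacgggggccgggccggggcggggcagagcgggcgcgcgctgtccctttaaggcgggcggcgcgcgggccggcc
A match in these windows is a description of the letters only.

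All 10 are protein-coding genes. In GENCODE M21 on GRCm38 they lie, with the strand in parentheses, as follows: Glul at chr1:153899944-153909723 (plus), Slc1a2 at chr2:102658659-102790784 (plus), Cyp2e1 at chr7:140763739-140774987 (plus), Cyp1a2 at chr9:57676937-57683703 (minus), Oat at chr7:132557478-132576398 (minus), Tbx3 at chr5:119670669-119684724 (plus), Lgr5 at chr10:115450311-115587780 (minus), Axin2 at chr11:108920349-108950783 (plus), Cyp2f2 at chr7:27119909-27133660 (plus) and Hal at chr10:93488768-93519304 (plus).

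Per unit of transcript length, the markers differed widely in abundance. In control liver before regeneration the FPKM (a count normalised for both gene length and sequencing depth, mean ± SD, n = 4) was highest for Cyp2e1 at 2354 ± 312, followed by Cyp2f2 at 864 ± 97.6. Cyp1a2 (308 ± 71.7) and Glul (300.4 ± 57.5) came next and overlapped in their ranges, then Oat (183.5 ± 30.3), Hal (123, range 111 to 153) and Slc1a2 (20.2 ± 3.73). The 3 regulators were scarce, with Tbx3 at 4.66 ± 0.659, Axin2 at 1.80 ± 0.354 and Lgr5 at 1.29 ± 0.322, of which Axin2 and Lgr5 overlapped. Enzymes were thus far above the Wnt-related genes in every group, and the order of mean FPKM was the same in the 4 groups. What differed was how clearly neighbours were separated: Cyp2e1 exceeded Cyp2f2 without overlap in both groups before regeneration, but after it their ranges overlapped in control (832 ± 249.6 against 741 ± 89.7) and in HIRA KO (880 ± 571 against 617 ± 91.3).

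**Figure D1:**
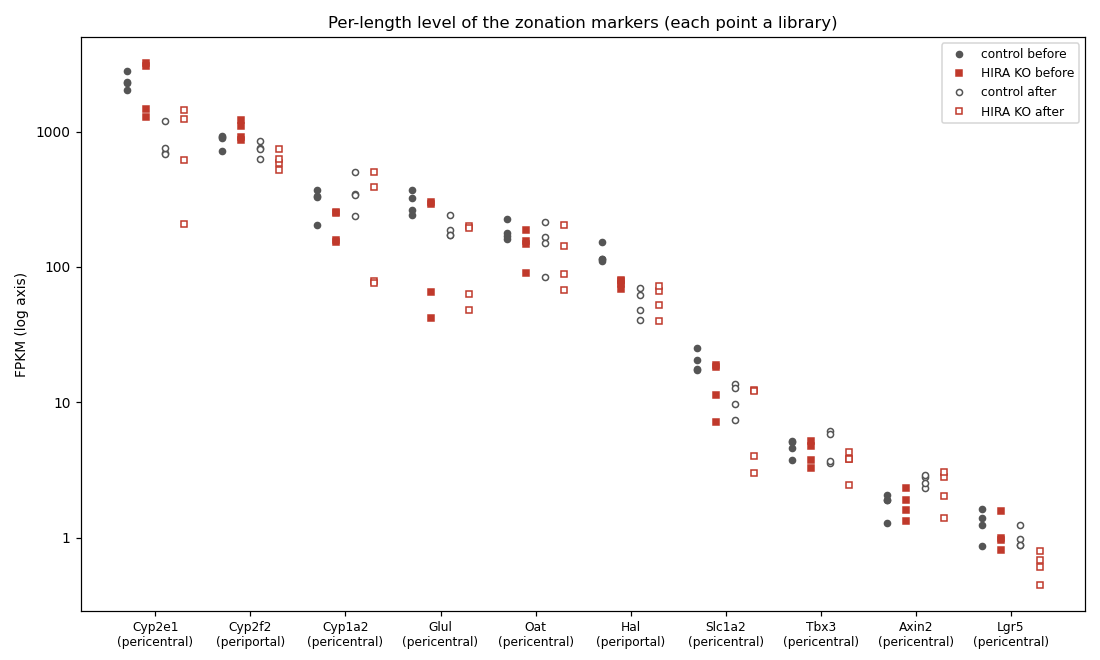
FPKM of the 10 zonation markers (log axis), each point 1 library, grey circles for control and red squares for HIRA KO, filled before and open after regeneration. From left to right the control mean before regeneration falls from 2354 for Cyp2e1 to 1.29 for Lgr5, and HIRA KO splits widely for Glul, Cyp2e1, Cyp1a2 and Slc1a2.

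The first question was whether loss of HIRA in hepatocytes alters zonation in resting liver. Several pericentral genes, Glul and Slc1a2 first among them, were far below control in HIRA KO libraries 1 and 2 and close to it in libraries 3 and 4, whereas the periportal gene Hal was lower in all 4. None of the 10 markers was called at an adjusted p under 0.05 (edgeR, n = 4 per group), against 0.0391% of all genes tested. DESeq2 called 0 as well, against 1.66% of all genes. At an unadjusted p under 0.05 there was 1 of the 10, Hal, against 13.2% of all genes. The groups did not overlap for 2 of the 10 markers, Slc1a2 and Hal, compared with 8.07% of all genes tested. The median log2 fold change was -0.35 over the 8 pericentral genes and 0.01 over all genes.

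Glul lay at 884, 813, 1315 and 1131 CPM in control libraries 1 to 4 and at 208, 130, 1008 and 1033 CPM in HIRA KO libraries 1 to 4. Libraries 1 and 2 of HIRA KO were thus at 20.1% and 12.5% of the control mean, below every control library, whereas libraries 3 and 4 were at 97.3% and 99.7%. In a bulk sample fewer cells of a zone and less RNA per cell cannot be told apart. With this split the group difference was not called (log2 fold change -0.80 ± 0.628 (SE), adjusted p = 0.625), and without the libraries numbered 1 and 2 it was -0.02 (adjusted p = 0.995).

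Slc1a2, the glutamate transporter of the same innermost hepatocytes, was at 120, 138, 118 and 111 CPM in control and at 24.2, 28.9, 90.3 and 88.4 CPM in HIRA KO. Every HIRA KO library was below every control library, by far in libraries 1 and 2 (19.9% and 23.8% of the control mean) and modestly in libraries 3 and 4 (74.3% and 72.7%). The log2 fold change was -1.07 ± 0.525 (adjusted p = 0.408; exact two-sided permutation p = 0.0286, the smallest that 4 against 4 libraries allow), and -0.44 without the libraries numbered 1 and 2 (adjusted p = 0.818).

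Cyp2e1, which oxidises ethanol and acetaminophen, read 5059, 4436, 5342 and 6508 CPM in control and 2644, 2966, 6892 and 6980 CPM in HIRA KO. Libraries 1 and 2 fell below and libraries 3 and 4 rose above the whole control range, so the means were close (4871 against 5336 CPM) while the SD was 2389 in HIRA KO and 868 in control. The log2 fold change of -0.13 ± 0.495 (adjusted p = 0.946) turned to 0.38 (adjusted p = 0.828) without the libraries numbered 1 and 2.

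For Cyp1a2, which metabolises caffeine, control gave 769, 843, 811 and 508 CPM and HIRA KO 345, 327, 585 and 607 CPM. Libraries 1 and 2 were again the low ones, at 47.1% and 44.7% of the control mean, and libraries 3 and 4 lay within the control range (log2 fold change -0.65 ± 0.529, adjusted p = 0.639; -0.30 without libraries 1 and 2, adjusted p = 0.878). Oat was at 478, 446, 461 and 649 CPM in control and at 226, 391, 390 and 527 CPM in HIRA KO. Here 3 HIRA KO libraries were below all controls, but the lowest by far was library 1 (log2 fold change -0.41 ± 0.349, adjusted p = 0.663; -0.14 without libraries 1 and 2, adjusted p = 0.964).

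The regulators were closer to control. Tbx3 was at 30.1, 25.8, 31.4 and 22.7 CPM in control and 21.0, 17.0, 29.0 and 29.2 CPM in HIRA KO, and Lgr5 was at 6.71, 7.91, 9.33 and 5.50 CPM in control and 3.92, 5.13, 9.18 and 5.95 CPM in HIRA KO. For both, libraries 1 and 2 of HIRA KO were the only ones below the control range. The log2 fold change was -0.19 ± 0.228 for Tbx3 (adjusted p = 0.765) and -0.29 ± 0.24 for Lgr5 (adjusted p = 0.644), and turned to 0.08 (adjusted p = 0.973) and 0.04 (adjusted p = 0.988) without libraries 1 and 2. Axin2, the direct feedback target of Wnt signaling, did not split in that way: it was at 6.42, 6.67, 8.41 and 5.68 CPM in control and at 7.62, 5.13, 5.64 and 8.20 CPM in HIRA KO, with library 1 within the control range. Its difference of -0.03 ± 0.21 on the log2 scale (adjusted p = 0.976) was small beside its error and became 0.03 without libraries 1 and 2 (adjusted p = 0.989). Lgr5 and Axin2 rested on 74 to 163 reads per library before regeneration, so their values carry a larger counting error than those of the enzymes.

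On the periportal side the 2 markers did not move together. Cyp2f2 was at 1988, 1967, 2210 and 1705 CPM in control and at 2511, 2250, 1960 and 1972 CPM in HIRA KO, where libraries 1 and 2 exceeded all controls (log2 fold change 0.14 ± 0.154, adjusted p = 0.738; -0.00039 without them). Hal was at 623, 439, 528 and 506 CPM in control and at 258, 324, 332 and 362 CPM in HIRA KO. All 4 HIRA KO libraries were below all controls, at 49.2% to 69.0% of the control mean, libraries 3 and 4 included. The log2 fold change of Hal was -0.72 ± 0.213 (adjusted p = 0.192; exact two-sided permutation p = 0.0286, the smallest possible) and stayed at -0.59 without the libraries numbered 1 and 2 (adjusted p = 0.734).

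**Figure D2:**
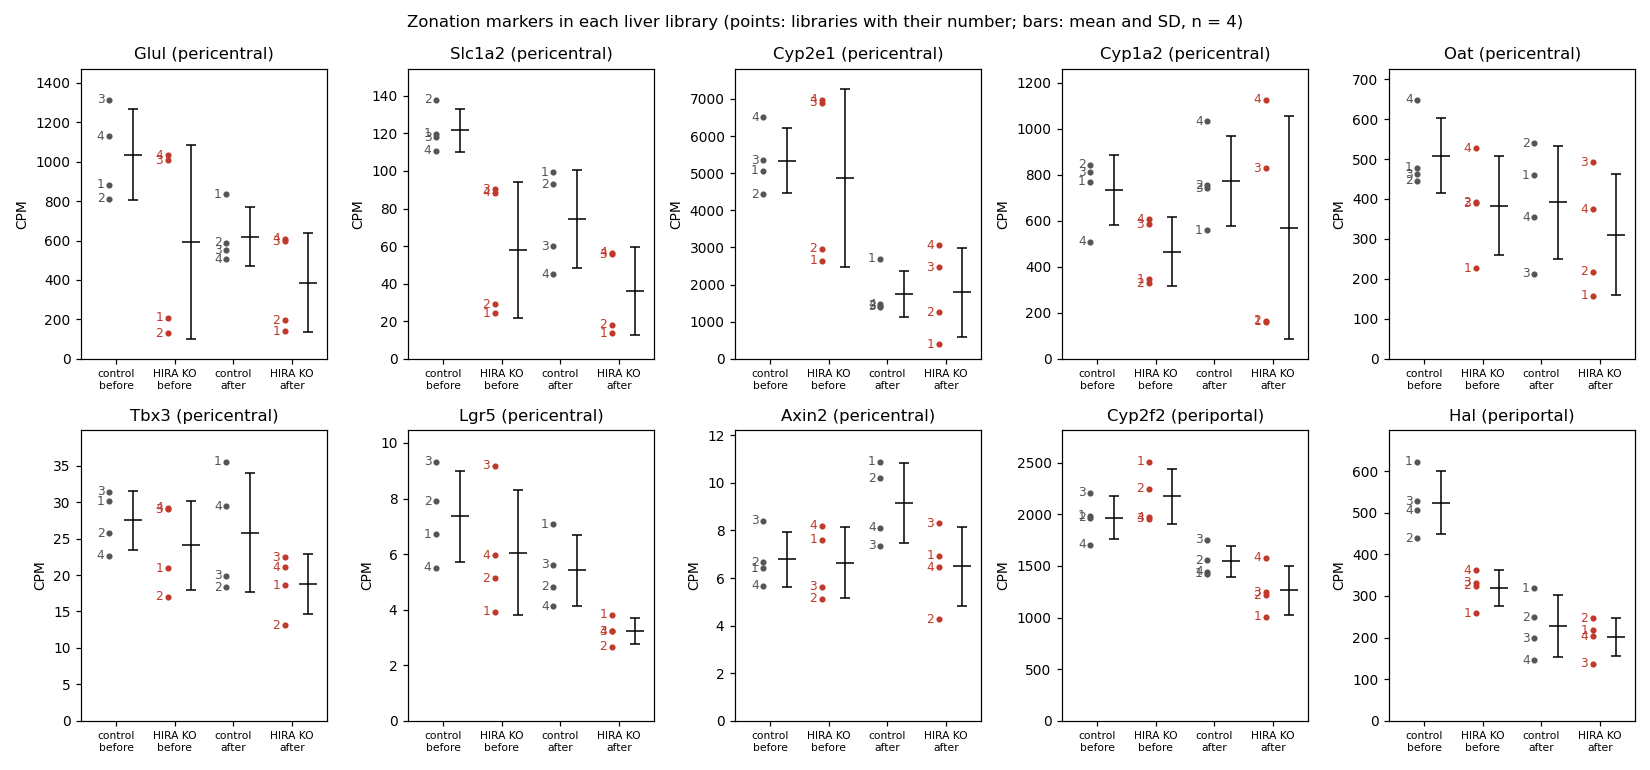
Level of each marker in CPM (linear axes from 0), 1 point per library with its number, grey for control and red for HIRA KO, with the mean and SD of each group of 4 beside the points. HIRA KO libraries 1 and 2 are the low points of Glul and Slc1a2 at both times (130 to 208 CPM for Glul before regeneration, with 1008 and 1033 CPM in libraries 3 and 4), and Hal is low in all 4 HIRA KO libraries before regeneration.

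The second question was whether the genotypes differed once the liver had regenerated. Again none of the 10 markers was called (edgeR and DESeq2, 0 each), against 0.491% of all genes with edgeR and 3.95% with DESeq2. In edgeR 2 had an unadjusted p under 0.05, Axin2 and Lgr5, against 15.8% of all genes. The groups did not overlap for 1 of the 10, Lgr5, compared with 8.10% of all genes. The median log2 fold change was -0.48 over the 8 pericentral genes and 0.02 over all genes, and libraries 1 and 2 of HIRA KO were once more the low ones for the pericentral enzymes.

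After regeneration Glul was at 836, 588, 551 and 506 CPM in control and at 141, 197, 597 and 610 CPM in HIRA KO. The low pair was at 22.7% and 31.7% of the control mean and the other pair at 96.2% and 98.4%, much as before regeneration (log2 fold change -0.68 ± 0.627, adjusted p = 0.652; -0.02 without libraries 1 and 2, adjusted p = 0.99). Slc1a2, after regeneration, was at 99.3, 93.0, 59.8 and 45.1 CPM in control and at 13.6, 18.3, 55.7 and 56.6 CPM in HIRA KO. Libraries 3 and 4 now fell within the control range, and libraries 1 and 2 stayed below it at 18.3% and 24.6% of its mean (log2 fold change -1.04 ± 0.526, adjusted p = 0.356; -0.38 without libraries 1 and 2, adjusted p = 0.645).

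Cyp2e1 spread the most of the 10 markers in HIRA KO by the ratio of highest to lowest library, with 393, 1248, 2463 and 3057 CPM against 2692, 1424, 1401 and 1465 CPM in control. The HIRA KO group thus reached from 22.5% to 175% of the control mean, libraries 3 and 4 standing at 141% and 175%. The mean difference was 0.04 ± 0.495 on the log2 scale (adjusted p = 0.98) and became 0.68 without libraries 1 and 2 (adjusted p = 0.295). Cyp1a2 was at 559, 755, 740 and 1031 CPM in control and 162, 165, 827 and 1126 CPM in HIRA KO, so libraries 1 and 2 held 21.0% and 21.4% of the control mean and library 4 exceeded every control. Its log2 fold change of -0.44 ± 0.528 (adjusted p = 0.745) turned to 0.36 (adjusted p = 0.619) without the libraries numbered 1 and 2. Oat was at 459, 539, 213 and 354 CPM in control and at 158, 218, 492 and 374 CPM in HIRA KO, and only library 1 was outside the control range (-0.33 ± 0.349, adjusted p = 0.699; 0.17 without libraries 1 and 2, adjusted p = 0.9).

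Lgr5 was the 1 marker in which all 4 HIRA KO libraries were low after regeneration. It was at 7.08, 4.81, 5.61 and 4.13 CPM in control and at 3.81, 2.66, 3.22 and 3.23 CPM in HIRA KO, with 58 to 113 reads per library. The groups did not overlap, and libraries 3 and 4 were as low as libraries 1 and 2 (log2 fold change -0.74 ± 0.245, adjusted p = 0.15; -0.72 without libraries 1 and 2, adjusted p = 0.321; exact two-sided permutation p = 0.0286). Axin2 was at 10.9, 10.2, 7.36 and 8.11 CPM in control and at 6.93, 4.26, 8.30 and 6.46 CPM in HIRA KO, of which 3 libraries were below all controls (-0.49 ± 0.208, adjusted p = 0.254; -0.28 without libraries 1 and 2, adjusted p = 0.698). Tbx3 read 35.6, 18.3, 19.9 and 29.4 CPM in control and 18.6, 13.1, 22.4 and 21.1 CPM in HIRA KO, and the groups overlapped (-0.46 ± 0.228, adjusted p = 0.344; -0.23 without libraries 1 and 2, adjusted p = 0.796).

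The periportal genes overlapped between genotypes after regeneration. Cyp2f2 was at 1423, 1555, 1752 and 1444 CPM in control and 1008, 1216, 1245 and 1581 CPM in HIRA KO, where 3 libraries were below all controls (-0.29 ± 0.154, adjusted p = 0.37; -0.11 without libraries 1 and 2, adjusted p = 0.86). Hal was at 318, 249, 199 and 145 CPM in control and at 217, 246, 137 and 203 CPM in HIRA KO, so the non-overlap seen before regeneration was not present (-0.18 ± 0.212, adjusted p = 0.736; -0.41 without libraries 1 and 2, adjusted p = 0.624). Whether the effect of HIRA KO differed between the 2 times was tested directly as an interaction. Of the 10 markers, 0 were called (0% of all genes, 0 with DESeq2, beside 0.291% of all genes, and 0 at an unadjusted p under 0.05, beside 6.81%), with Hal at 0.54 ± 0.3 (adjusted p = 0.764) and Lgr5 at -0.45 ± 0.342 (adjusted p = 0.832).

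**Figure D3:**
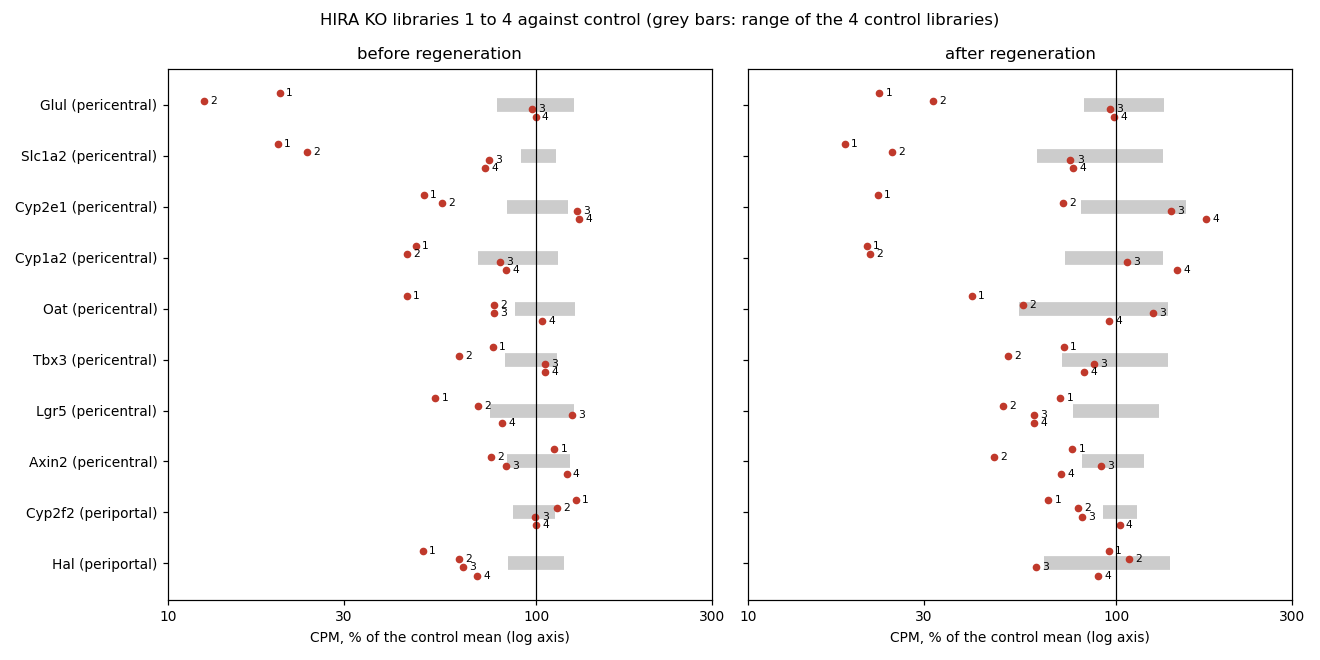
CPM of each marker in HIRA KO libraries 1 to 4 as a percentage of the control mean at the same time (log axis), with grey bars for the range of the 4 control libraries. Libraries 1 and 2 sit far to the left for Glul (12.5% and 20.1% before, 22.7% and 31.7% after) and Slc1a2, whereas Axin2, Cyp2f2 and Hal do not split in this way.

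The markers could also be read library by library. In HIRA KO before regeneration, 7, 8, 3 and 1 of the 8 pericentral genes were below all 4 controls in libraries 1 to 4, and after it 7, 7, 1 and 2. Over all genes tested the share below all controls was 24.6%, 24.5%, 19.4% and 16.8% before and 26.0%, 26.2%, 20.8% and 18.8% after regeneration. The balance between 1 pericentral and 1 periportal gene can be given as reads of Glul per read of Cyp2f2, which needs no scaling between libraries. It was 0.413 to 0.663 in control before regeneration and 0.0829, 0.0576, 0.514 and 0.524 in HIRA KO libraries 1 to 4; after regeneration it was 0.315 to 0.588 in control, while HIRA KO libraries 1 to 4 gave 0.140, 0.162, 0.479 and 0.386. The low ratio was thus found in the same 4 libraries and the ratio of the other 4 was within the control range. It describes these 2 genes only. The other periportal marker, Hal, was below all controls in all 4 HIRA KO libraries before regeneration. Reads of Glul per read of Hal were not compared. Reads of Cyp2e1 per read of Cyp2f2 split in the same way before regeneration (2.25 to 3.82 in control and 1.05, 1.32, 3.52 and 3.54 in HIRA KO) but not after it, when control lay at 0.80 to 1.89 and HIRA KO libraries 1 to 4 at 0.39, 1.03, 1.98 and 1.93. Library 1 alone was then below the control range, library 2 was within it and libraries 3 and 4 were above it.

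A wider list of 26 further pericentral genes gave the same split by library. This list and the periportal one that follows were chosen with earlier results of these data known, so neither is a separate check. In HIRA KO libraries 1 to 4, 19, 19, 6 and 3 of the 26 were below all controls before regeneration and 20, 18, 2 and 1 after it. Over all genes tested the shares were 24.6%, 24.5%, 19.4% and 16.8% before and 26.0%, 26.2%, 20.8% and 18.8% after. Above all controls were 2, 1, 4 and 5 of the 26 before and 1, 1, 8 and 6 after. Among the 26, chosen after their values were seen, Nr1i3 (the xenobiotic receptor CAR) was at 6.36%, 8.83%, 116% and 98.6% of the control mean before regeneration, and its target Cyp2c37 at 3.55%, 8.64%, 83.0% and 86.0%. In a list of 22 further periportal genes, 9, 10, 2 and 1 were above all controls before regeneration and 14, 16, 2 and 6 after it, beside 30.1%, 28.5%, 19.1% and 18.6% of all genes before and 29.0%, 27.8%, 20.4% and 22.3% after. Below all controls were 3, 3, 9 and 5 of the 22 before and 2, 1, 4 and 1 after. Of the 22, also chosen after its values were seen, the urea cycle gene Cps1 was at 166%, 180%, 68.4% and 88.7% of the control mean before and 279%, 228%, 88.3% and 104% after regeneration.

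None of the genes of these lists was called between genotypes by edgeR at either time. At an unadjusted p under 0.05 there were 2 of the 26 pericentral genes before and 1 after regeneration, and 3 and 5 of the 22 periportal genes, beside 13.2% and 15.8% of all genes. DESeq2 called 1 and 1, and 2 and 3, beside 1.66% and 3.95% of all genes. The median log2 fold change of the pericentral list was -0.42 before and -0.25 after regeneration, and that of the periportal list 0.09 and 0.49, beside 0.01 and 0.02 over all genes. Of 5 mid-lobular genes and of 22 genes for Wnt and R-spondin signals, receptors and transducers, 0 were called by edgeR at either time (1 and 1 of the 5, and 4 and 3 of the 22, at an unadjusted p under 0.05; DESeq2 called 0 and 1 of the mid-lobular genes and 0 and 0 of the Wnt genes). Wnt2, an endothelial ligand of the pericentral zone, chosen after its values were seen, was at 41.3%, 43.0%, 99.2% and 130% of the control mean in HIRA KO libraries 1 to 4 before regeneration. After regeneration it was at 54.9%, 34.0%, 112% and 122%. Wnt2 was scarce, at 1.22 and 1.27 CPM in libraries 1 and 2 before regeneration, and the list did not follow it at that time. In these 2 libraries 5 and 5 of the 22 Wnt genes were below all controls and 8 and 10 above. Over all genes, 24.6% and 24.5% were below and 30.1% and 28.5% above. After regeneration 6 and 8 of the 22 were below and 6 and 2 above. The shares of all genes were then 26.0% and 26.2% below and 29.0% and 27.8% above. Before regeneration Rspo3 was at 93.3%, 94.1%, 89.9% and 110% of the control mean in libraries 1 to 4. Wnt9b, also scarce and chosen after its values were seen, was at 87.9%, 26.4%, 124% and 94.1%. After regeneration Rspo3 was at 130%, 99.4%, 148% and 95.2%, and Wnt9b at 48.6%, 61.9%, 68.6% and 95.5%.

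**Figure D4:**
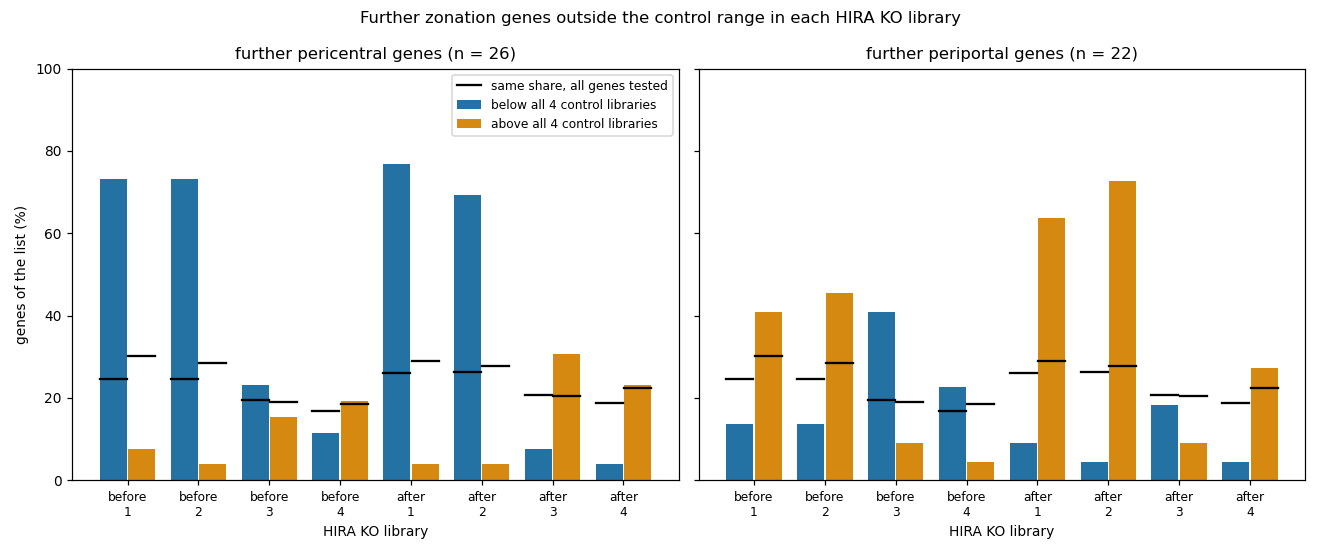
Percentage of 26 further pericentral genes (left) and 22 further periportal genes (right) that lay below (blue) or above (orange) all 4 control libraries in each HIRA KO library, with black lines for the same share over all genes tested. In libraries 1 and 2, 18 to 20 of the pericentral genes were below all controls, against 1 to 6 in libraries 3 and 4.

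Markers of some other cell types moved in the same libraries, while those of Kupffer cells did not before regeneration. The 6 Kupffer cell markers then summed to 145 to 380 CPM in control and 186 to 226 CPM in HIRA KO. In each HIRA KO library 0 of these 6 lay outside the control range at that time. The summed CPM of 6 stellate cell and fibroblast markers was 218 to 246 in control before regeneration. In HIRA KO libraries 1 to 4 it was 570, 472, 246 and 261 at that time. All 6 were above every control in libraries 1 and 2, beside 30.1% and 28.5% of all genes tested. After regeneration the sums were 174 to 400.1 in control and 312 to 474 in HIRA KO. For 6 cholangiocyte markers the sums were 48.7 to 74.2 in control and 190, 98.3, 58.4 and 74.5 in HIRA KO before regeneration, and 72.6 to 116 and 82.5 to 133 after it. Of these 6, 5, 5, 0 and 2 were above every control in HIRA KO libraries 1 to 4 before regeneration. After it 6, 4, 3 and 0 were. The shares of all genes tested were 30.1%, 28.5%, 19.1% and 18.6% before and 29.0%, 27.8%, 20.4% and 22.3% after. In libraries 1 and 2, 0 of the 6 were below every control at either time. The 5 endothelial markers summed to 163 to 206 in control and 146 to 209 in HIRA KO before regeneration and to 110 to 176 and 129 to 147 after it, and the 6 T and B cell markers to 2.07 to 3.73 and 1.77 to 8.84 before and to 4.76 to 6.98 and 4.55 to 7.73 after. Before regeneration the T and B cell sums were 8.84, 5.735, 1.77 and 3.01 CPM in HIRA KO libraries 1 to 4. In libraries 1 and 2, 6 and 4 of these 6 markers were then above every control and 0 below. The shares of all genes tested above every control were 30.1% and 28.5%. After regeneration 1 and 2 of the 6 were above, beside 29.0% and 27.8%. No marker of these lists was at 0 in any group. The 5 markers of dividing cells summed to 3.61 to 9.16 CPM in control before regeneration. Their sums in HIRA KO libraries 1 to 4 were 18.7, 12.9, 5.17 and 5.64 CPM at that time. In libraries 1 and 2, 5 and 3 of the 5 were above every control, beside 30.1% and 28.5% of all genes tested. After regeneration the ranges were 33.4 to 248 CPM in control and 37.4 to 234 CPM in HIRA KO. The part of other cell types in the split was not tested. The tables do not name the deletion approach of a library, so its part in the split was not tested either.

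The third question was how the zones of the regenerated liver compared with the resting liver. Hal was lower after regeneration in both genotypes, and in HIRA KO Cyp2f2 and Lgr5 were lower as well. In control, 1 of the 10 markers was called, a share near that of all genes (10.2%). The control groups did not overlap for 3 markers (Hal, Cyp2e1 and Slc1a2, all lower), against 19.0% of all genes. In HIRA KO, 3 of the 10 were called, against 12.0% of all genes, and the same 3 did not overlap, against 16.1%. Without libraries 1 and 2, 2 of the 10 were called in HIRA KO (Cyp2e1 and Lgr5), against 10.3% of all genes.

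Hal fell from 524 ± 76.2 to 228 ± 73.7 CPM in control (43.5% of the level before; log2 fold change -1.20 ± 0.215, adjusted p = 0.00214), and every library after regeneration was below every library before it. In HIRA KO it fell from 319 ± 43.8 to 201 ± 46.2 CPM (63.0%; -0.67 ± 0.213, adjusted p = 0.0496). The second call was marginal and did not hold without the libraries numbered 1 and 2, although the change was then larger (-1.02, adjusted p = 0.0512). It was also lost when library 2, 3 or 4 before regeneration (adjusted p = 0.1, 0.11 and 0.122) or library 1, 3 or 4 after it (0.0662, 0.14 and 0.0855) was left out alone. Cyp2f2 fell from 2173 ± 262 to 1263 ± 237 CPM in HIRA KO (58.1%; -0.78 ± 0.154, adjusted p = 0.00363), with no overlap, and was at 1968 ± 207 before and 1544 ± 150.4 CPM after in control, where the ranges overlapped (-0.35 ± 0.154, adjusted p = 0.172). Without libraries 1 and 2 the value of Cyp2f2 in HIRA KO was -0.46 (adjusted p = 0.11). The difference between genotypes in the response of Cyp2f2 was not called (-0.43 ± 0.217, adjusted p = 0.748).

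Among the pericentral genes, Lgr5 fell in HIRA KO from 6.04 ± 2.25 to 3.23 ± 0.466 CPM (53.4%; -0.90 ± 0.246, adjusted p = 0.0239; -1.21 without libraries 1 and 2, adjusted p = 0.0202). In control it was at 7.36 ± 1.64 before and 5.41 ± 1.27 CPM after (-0.45 ± 0.24, adjusted p = 0.279). Both groups of Lgr5 held few reads, and in HIRA KO the call was lost without library 3 or library 4 before regeneration or library 2 or library 3 after it (adjusted p = 0.113, 0.0521, 0.0722 and 0.0545).

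Cyp2e1 had the largest log2 difference of the 10 in both genotypes without being called. In control it was at 5336 ± 868 CPM before and 1746 ± 632 CPM after regeneration (32.7%), with no overlap, but its error was wide (-1.61 ± 0.507, adjusted p = 0.0587). Library 1 after regeneration, at 2692 CPM, stood above the other 3 at 1401 to 1465 CPM, and without it Cyp2e1 was called (-1.88, adjusted p = 0.0473). In HIRA KO the levels were 4871 ± 2389 and 1790 ± 1198 CPM (36.7%; -1.44 ± 0.505, adjusted p = 0.0779), and without libraries 1 and 2 the gene was called (-1.32, adjusted p = 0.0104), as it was without library 4 after regeneration (-1.81, adjusted p = 0.0438). All groups shared 1 model, so the spread of the HIRA KO libraries entered the error of the control comparison too. Fitted on the control libraries alone, Cyp2e1 (-1.61, adjusted p = 0.000887) and Glul (-0.74, adjusted p = 0.0184) were called as well.

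Glul, at 1036 ± 231 and 620 ± 148 CPM in control, and Slc1a2, at 122 ± 11.6 and 74.3 ± 26.1 CPM, were at 59.9% and 61.1% of their levels before regeneration (-0.74 ± 0.628, adjusted p = 0.544, and -0.71 ± 0.521, adjusted p = 0.466). Cyp1a2 was at 733 ± 153 before and 771 ± 195 CPM after (0.07 ± 0.527, adjusted p = 0.963). In HIRA KO, Glul was at 595 ± 493 and 386 ± 252 CPM (-0.62 ± 0.627, adjusted p = 0.578; -0.74 without libraries 1 and 2, adjusted p = 0.0609), Slc1a2 at 58.0 ± 36.3 and 36.0 ± 23.3 CPM (-0.69 ± 0.524, adjusted p = 0.443; -0.66, adjusted p = 0.189) and Cyp1a2 at 466 ± 150.5 and 570 ± 485 CPM (0.29 ± 0.527, adjusted p = 0.777; 0.72, adjusted p = 0.107). Axin2 was at 6.80 ± 1.16 and 9.14 ± 1.68 CPM in control (0.43 ± 0.208, adjusted p = 0.226) and at 6.65 ± 1.49 and 6.49 ± 1.68 CPM in HIRA KO (-0.04 ± 0.21, adjusted p = 0.932; 0.11 without libraries 1 and 2, adjusted p = 0.842), and the difference in its response was not called (-0.46 ± 0.295, adjusted p = 0.792). Tbx3 and Oat were not called in either genotype (adjusted p = 0.872 and 0.583 in control, 0.345 and 0.63 in HIRA KO, and 0.394 and 0.936 there without libraries 1 and 2).

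**Figure D5:**
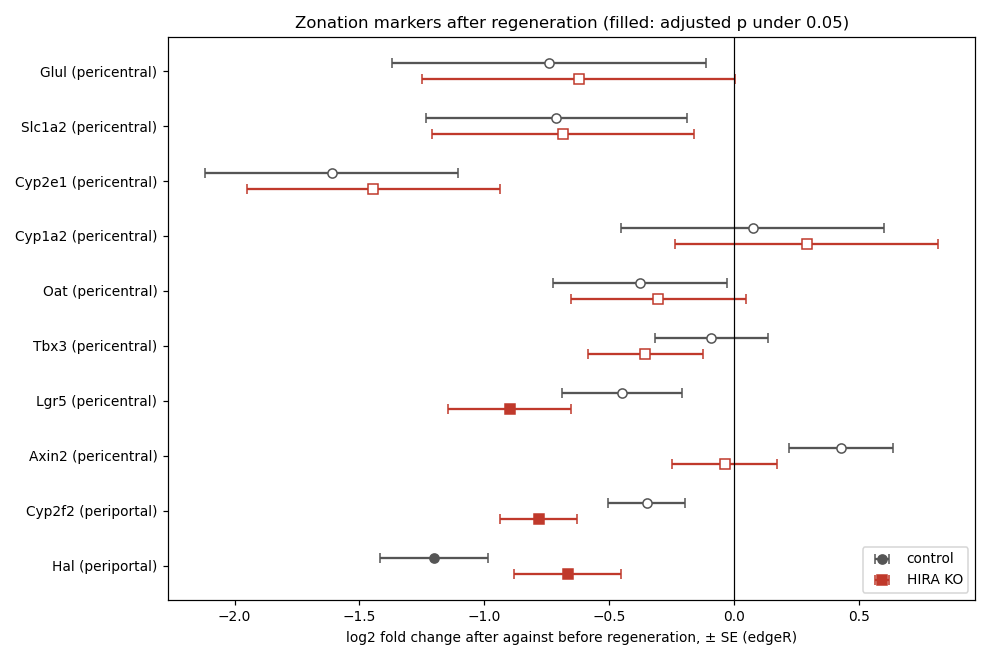
Log2 fold change of each marker after against before regeneration with its SE (edgeR), grey circles for control and red squares for HIRA KO, filled where the adjusted p was under 0.05. Filled points are Hal in both genotypes (-1.20 and -0.67) and Cyp2f2 and Lgr5 in HIRA KO (-0.78 and -0.90), whereas Cyp2e1 lies farthest from 0 with open points.

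Of the 26 further pericentral genes, 3 rose and 2 fell in control and 3 rose and 2 fell in HIRA KO. Of all genes, 6.04% rose and 4.17% fell in control and 6.48% rose and 5.53% fell in HIRA KO. The glutathione transferase Gstm3 rose from 129 ± 60.5 to 2450 ± 1565 CPM in control (4.25 ± 0.817, adjusted p = 0.00579) and from 66.4 ± 9.71 to 893 ± 823 CPM in HIRA KO (3.75 ± 0.799, adjusted p = 0.00992). The dicarboxylate transporter Slc13a3 rose by 1.15 ± 0.279 (adjusted p = 0.0167) and 1.03 ± 0.286 (adjusted p = 0.0302) on the same scale. The proline dehydrogenase Prodh fell in control (-1.29 ± 0.318, adjusted p = 0.0176), and Cyp27a1, a sterol hydroxylase of bile acid synthesis, fell in HIRA KO from 491 ± 83.2 to 230 ± 89.6 CPM (-1.09 ± 0.226, adjusted p = 0.00498). The calls of Gstm3 in both genotypes and of Cyp27a1 held under every alternative run. Prodh was not called without control library 1 before or library 3 after regeneration, and Slc13a3 not without control library 1 or 4 before it, or without HIRA KO library 1, 2 or 4 before or 3 or 4 after it (highest adjusted p = 0.0566 for Prodh and 0.0597 and 0.0857 for Slc13a3 over all alternatives).

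Of the 22 further periportal genes, 8 fell and 1 rose in control, beside 4.17% and 6.04% of all genes, and 2 fell and 2 rose in HIRA KO, beside 5.53% and 6.48%. The gluconeogenic genes G6pc and Pck1 fell in both genotypes. G6pc fell from 1015 ± 325 to 140 ± 40.6 CPM in control (-2.86 ± 0.267, adjusted p = 1.83e-05) and from 853 ± 66.7 to 192 ± 45.7 CPM in HIRA KO (-2.15 ± 0.26, adjusted p = 0.000142). Pck1 fell from 3174 ± 570.0 to 994 ± 184 CPM (-1.68 ± 0.292, adjusted p = 0.00183) and from 3422 ± 704 to 1478 ± 827 CPM (-1.21 ± 0.288, adjusted p = 0.012). The lipid transporter Mfsd2a fell in control (-3.36 ± 0.786, adjusted p = 0.0167) and the apolipoprotein Apoa4 rose in HIRA KO (1.83 ± 0.534, adjusted p = 0.0415). The Mfsd2a call was lost without control library 3 after regeneration. The Apoa4 call was lost without HIRA KO library 1, 2 or 4 before or library 1 or 3 after it and without the 4 libraries that stood apart, with an adjusted p of up to 0.486, whereas G6pc was called under every alternative run. The median log2 fold change was -0.41 in control and -0.30 in HIRA KO for the pericentral list and -0.65 and -0.24 for the periportal list, beside 0.00 and 0.02 over all genes. That fewer periportal genes were called in HIRA KO is not a tested difference: in the interaction 0 of the 22 were called (edgeR; 1 at an unadjusted p under 0.05, 0 with DESeq2).

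Of the 22 Wnt pathway genes, 3 fell in HIRA KO after regeneration, beside 5.53% of all genes that fell and 12.0% called in either direction, and 0 were called in control (4 at an unadjusted p under 0.05, beside 23.5% of all genes, and 0 with DESeq2, beside 14.2%). These were Fzd4 (-0.70 ± 0.164, adjusted p = 0.0111), Fzd1 (-0.66 ± 0.161, adjusted p = 0.0131) and the co-receptor Lrp6 (-0.40 ± 0.103, adjusted p = 0.0181), and 1 of the 22 was called without the libraries numbered 1 and 2, when Fzd1 and Lrp6 were not. Lrp6 was also not called without HIRA KO library 2 or 3 before or library 3 after regeneration (adjusted p of up to 0.84 over all alternatives). No mid-lobular gene of 5 was called by edgeR in either genotype (4 in control and 0 in HIRA KO at an unadjusted p under 0.05, beside 23.5% and 27.4% of all genes, and 2 and 0 with DESeq2, beside 14.2% and 15.8%). Beside these changes, all 5 markers of dividing cells rose in both genotypes, with Mki67 at 1.33 ± 0.634 and 49.5 ± 30.6 CPM in control, though in HIRA KO the Ccnb1 call was lost under 9 of 14 alternatives (adjusted p of up to 0.151) and 3 of the 5 were called without libraries 1 and 2. All 6 Kupffer cell markers rose in both, their sums going from 145 to 380 up to 611 to 787 CPM in control and from 186 to 226 up to 603 to 943 CPM in HIRA KO. Among the markers called, 2 of 6 for hepatocytes (Tat and Ttr) fell in HIRA KO and 1 (Tat) in control, and Kdr of the 5 endothelial markers fell in both. In control, 1 of 6 cholangiocyte markers (Spp1, 0.60 ± 0.178, adjusted p = 0.0395) and 1 of 6 T and B cell markers rose. In HIRA KO 0 of either list was called. The Ttr call was lost under 9 of 14 alternatives and the Spp1 call under 8 of 13. That of Kdr was lost under 6 of 13 in control and 8 of 14 in HIRA KO, and those of Tat under none. The part of cell composition in the changes of Hal, Cyp2f2 and Lgr5 was not tested.

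Finally, the members were compared with one another over the 16 libraries as deviations of log2(CPM + 1) from their group means, a description in which the libraries that stood apart carry much of the variance. Glul and Slc1a2 had a Pearson r of 0.91, Cyp2e1 had 0.85 with Glul and 0.86 with Slc1a2, and Cyp1a2 had 0.68 with Glul. Over the 8 control libraries alone these values were 0.42 for Glul and Slc1a2, 0.81 for Cyp2e1 and Glul, 0.40 for Cyp2e1 and Slc1a2 and -0.63 for Cyp1a2 and Glul, so the last turned sign. Axin2 had 0.39 with Glul and 0.58 with Tbx3 over the 16 libraries, and 0.62 and 0.45 over the controls. Cyp2f2 and Glul had 0.00 over the 16 libraries and -0.10 over the controls, and Cyp2f2 and Hal had -0.20 and -0.04. Hal and Glul had 0.05 over the 16 libraries but 0.62 over the controls, where Hal had 0.63 with Cyp2e1 and 0.81 with Slc1a2 and Cyp2f2 had -0.68 with Oat. With Cyp1a2, over the 16 libraries, Cyp2f2 had 0.47 and Hal -0.42.

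Among 13176 genes, the 3 non-members most like Glul by this measure were Colec12 (r = 0.97), Glns-ps1 (0.97) and Fdxacb1 (0.97), and over the 8 control libraries alone they had 0.93, 0.84 and 0.54. Glns-ps1 is a pseudogene copy of Glul, so reads may be shared between them and its value is uncertain. For Cyp2e1 the nearest were Ido2 (0.97), Car5a (0.97) and Spp2 (0.97), with 0.83, 0.77 and 0.78 in the control libraries. Axin2 was nearest to Spata22 (0.83), Zfp120 (0.82) and Ankmy2 (0.81), with 0.82, 0.90 and 0.79 in the control libraries. Cyp2f2 was nearest to Zfp148 (0.86), Bdnf (0.84) and Rin2 (0.84), with 0.88, 0.95 and 0.88 in the control libraries. All these genes were picked as the highest of 13176, and how high such values come for unrelated genes was not tested. The 8 control libraries are among the 16 used for the choice, so their values are not a separate check.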

How the data were processed

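Poly-A RNA-seq of 16 mouse livers was read from 2 deposited tables. Per the study's methods, the authors trimmed reads where needed, aligned them to mm10 with STAR and made raw counts per gene with HOMER; the submitters' processing notes name STAR, HTSeq and Cufflinks. The deposited FPKM values were made by the authors with a tool that is not given in the sources used here, and empty FPKM cells were read as 0. The FPKM served for levels between genes and for 1 alternative. Every sample column was used (0 left out). Glul carries a newer identifier version in the files than in GENCODE M21 and was matched without it.

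Counts were tested with edgeR (version 4.0.16, R 4.3.3): TMM scaling, genes with at least 10 counts in total, 4 group means in 1 model, robust quasi-likelihood test, Benjamini-Hochberg adjustment over all 23018 genes and calls at an adjusted p under 0.05. The tests were checked on simulated counts. SE was derived from each log2 fold change and the F statistic of its test and is approximate. No pair of libraries within a group agreed within sampling noise (chi-square test of counts). Single genes also got exact two-sided permutation tests. CPM used TMM-scaled library sizes, and correlations used log2(CPM + 1). Alternatives were median-ratio size factors, no filter on low counts, DESeq2 (1.42.0), limma (3.58.1) on log2(FPKM + 1), only the groups compared, each library left out in turn and, added later, the 4 libraries that stood apart left out. Nothing in the tables ties a column to a mouse or culture, so p-values measure the spread between these libraries. All 10 markers were named, with Hira as a check of the labels. Of each further list, up to 3 called genes per comparison with the largest change and a mean of at least 1 CPM were named, and for 4 markers the 3 genes most like them. The markers and the lists were chosen with earlier results of these data known.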

Additional observations from a re-analysis of the deposited data

Results flagged for a closer look

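In 40 groups of 4 libraries (10 markers in 4 groups) the highest and the lowest library were compared with the rest, and 2 groups held a library far from the others, where chance gives about 1 in 20. Cyp2e1 in control after regeneration was at 2690 CPM in library 1, with a gap to the next library of 0.95 of the whole range. Oat in control before regeneration was at 649 CPM in library 4, with a gap of 0.839 of the range. The cause was not tested in either case.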

How the results depend on the processing

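None of the 10 markers was called between genotypes, or in the difference of the genotype effects, under any alternative run. In control, the number of markers lower after regeneration was 1 (Hal), and became 2 with DESeq2 (Cyp2e1 and Hal) and 3 with only the groups compared (Glul, Cyp2e1 and Hal); over the fits that left out 1 library it was 1 to 2. In HIRA KO it was 3 (Cyp2f2, Hal and Lgr5), and became 4 with DESeq2 (Cyp2e1 added), 2 without the 4 libraries that stood apart (Cyp2e1 and Lgr5), 2 with no filter on low counts (Cyp2f2 and Lgr5), 1 (Cyp2f2) with limma on FPKM and 1 (Cyp2f2) with only the groups compared; it was 1 to 3 with 1 library left out, being 1 without HIRA KO library 3 or 4 before or library 3 after regeneration. The Hal call in HIRA KO was also lost with no filter on low counts (-0.65, adjusted p = 0.0674). Calls over all genes, in either direction, shifted as well. In control they were 10.2% in the main fit, 14.2% with DESeq2 and 3275 of 20144 genes with only the groups compared. In HIRA KO they were 12.0% in the main fit, 15.8% with DESeq2 and 10.3% without the 4 libraries that stood apart. There they were also 2197 of 34224 genes with no filter, 2558 of 23018 with limma and 1431 of 20922 with only the groups compared. Among the further zonation and Wnt genes named, Prodh, Slc13a3, Mfsd2a, Apoa4, Pck1 and Fzd4 were each not called in 1 comparison or more with only the groups compared, and Slc13a3 and Apoa4 in HIRA KO with no filter on low counts, while Fzd1 and Lrp6 were not called with limma on FPKM; none of them turned direction. The cause was not tested.

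Directions turned only in values that were not called. Without the 4 libraries that stood apart, HIRA KO against control before regeneration became 0.38 for Cyp2e1, 0.031 for Axin2, 0.084 for Tbx3, 0.036 for Lgr5 and -0.00039 for Cyp2f2. After regeneration it became 0.36 for Cyp1a2 and 0.17 for Oat, the change of Axin2 in HIRA KO became 0.11, and the difference of effects became -0.002 for Glul. With limma on FPKM, HIRA KO against control after regeneration became -0.22 for Cyp2e1 and 0.052 for Hal, the change with regeneration became 0.018 for Tbx3 in control and -0.095 for Cyp1a2 and 0.23 for Axin2 in HIRA KO, and the difference of effects became -0.036 for Cyp2e1, -0.28 for Cyp1a2 and -0.004 for Slc1a2. Leaving out 1 library gave, between genotypes before regeneration, -0.36 to 0.077 for Cyp2e1 and -0.14 to 0.09 for Axin2, and after it -0.34 to 0.40 for Cyp2e1 and -0.30 to 0.026 for Hal. For regeneration it gave -0.13 to 0.21 for Cyp1a2 and -0.27 to 0.047 for Tbx3 in control, and -0.26 to 0.61 for Cyp1a2 and -0.17 to 0.14 for Axin2 in HIRA KO. For the difference of effects it gave -0.20 to 0.52 for Glul, -0.21 to 0.53 for Cyp2e1, -0.33 to 0.545 for Cyp1a2, -0.22 to 0.32 for Oat and -0.26 to 0.337 for Slc1a2.

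No paired analysis was possible because the columns carry only a running number that no label gives, and no mouse or deletion approach; the planned fit with the mouse as a block was not run. Total counts of 15103059 to 21738619 per library left Axin2 and Lgr5 with at most 178 reads in a library, which limits what can be seen for these 2 genes.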
